A study of Homo sapiens with 4 samples.

Results

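The acute phase proteins are plasma proteins that the liver releases in larger or smaller amounts during inflammation, and 10 of their genes are described here. They were CRP, SAA1, SAA2, SAA4, ORM1, ORM2, HP, HPX, LBP and LRG1, taken by gene symbol from the platform's annotation, out of 22395 genes that it names. Each was represented by the probe set (the group of array probes that reports a transcript) with its highest mean over the 4 arrays. The platform lists SAA2 and SAA4 on 1 shared probe set, which also lists their readthrough transcript, and its highest ORM1 probe set lists ORM2 as well. The 10 genes therefore came to 8 distinct probe sets out of 53617. A further probe set lists ORM1 alone and is given beside the shared one. The rule that picked the probe sets used only their mean signal; the genes themselves were chosen with earlier results of these data known.

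The cells were Huh7, a human line from a hepatocellular carcinoma. The 2 control samples received the plasmid pcFLAG and the 2 STYK1 samples pcFLAG-hSTYK1, which carries human STYK1, a receptor-like kinase. Total RNA of each was labelled with biotin and hybridised to an Affymetrix whole-transcript array. The labels name no cytokine treatment and no time after transfection, and they do not say whether the cells were a pool, a clone or separate cultures. The p-values thus measure the spread between these 4 samples alone, which may be technical. The question put to the acute phase genes is whether their transcripts differ under STYK1 overexpression.

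In an acute phase response, IL6 acts on hepatocytes through its receptor IL6R and the shared signalling chain IL6ST, which activate JAK kinases and the transcription factor STAT3. IL1 and TNF act through NF-kB, and C/EBP factors and glucocorticoids add to the response. CRP binds phosphocholine on microbes and dying cells and activates complement, SAA1 and SAA2 are inducible apolipoproteins of high-density lipoprotein, and SAA4 is their constitutive relative. HP captures free haemoglobin and HPX captures free haem. ORM1 and ORM2, also called alpha-1-acid glycoproteins, carry lipophilic drugs, LBP passes bacterial lipopolysaccharide to CD14, and LRG1 is a leucine-rich glycoprotein that modulates TGF-beta signalling.

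RefSeq promoter sequences (GRCh38.p14) were used for 5 of the 10 genes, CRP, SAA4, ORM1, HPX and LRG1, and the 250 bases before the gene start were searched on both strands. Of these genes 4 are shown, because CRP lay at background on every array while HPX, ORM1 and LRG1 lay above it. Their windows are chr1:159714590-159714839 (CRP, minus strand), chr11:6440988-6441237 (HPX, minus strand), chr9:114322848-114323097 (ORM1, plus strand) and chr19:4540037-4540286 (LRG1, minus strand). They are written 5′ to 3′, and capitals mark every match to the 5 motifs described after them.
CRP: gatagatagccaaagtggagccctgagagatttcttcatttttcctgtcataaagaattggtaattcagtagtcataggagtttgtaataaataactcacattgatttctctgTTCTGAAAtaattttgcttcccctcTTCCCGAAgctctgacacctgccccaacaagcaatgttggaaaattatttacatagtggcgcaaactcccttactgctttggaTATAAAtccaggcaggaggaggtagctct
HPX: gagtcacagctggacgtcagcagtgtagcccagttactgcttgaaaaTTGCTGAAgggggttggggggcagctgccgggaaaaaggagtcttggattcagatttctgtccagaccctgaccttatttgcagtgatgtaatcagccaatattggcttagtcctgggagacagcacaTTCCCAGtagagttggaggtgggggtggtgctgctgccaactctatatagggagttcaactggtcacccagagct
ORM1: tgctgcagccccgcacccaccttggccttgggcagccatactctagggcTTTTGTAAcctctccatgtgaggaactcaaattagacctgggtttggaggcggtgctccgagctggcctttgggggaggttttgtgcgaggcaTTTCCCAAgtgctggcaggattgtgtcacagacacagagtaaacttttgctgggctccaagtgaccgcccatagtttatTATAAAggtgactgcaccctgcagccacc
LRG1: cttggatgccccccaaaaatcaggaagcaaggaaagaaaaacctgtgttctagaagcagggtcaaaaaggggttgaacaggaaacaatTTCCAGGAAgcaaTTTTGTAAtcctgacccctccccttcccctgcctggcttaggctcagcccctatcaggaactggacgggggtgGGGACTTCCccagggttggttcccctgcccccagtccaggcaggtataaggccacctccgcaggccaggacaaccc

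A C/EBP pattern, TTNNGNAA, was found in 5 of the 5 windows, where 33.2% of 35116 promoter windows of that length hold it. The TATA box was searched as TATAAA, which 10.7% of windows hold. CRP and ORM1 each held it from 29 to 24 bases before the start. A STAT pattern, TTCNNNGAA, found in 6.57% of windows, was matched in LRG1 alone among the 5, as TTCCAGGAA from 162 to 154 bases before the start. LRG1 was also the only one of the 5 with the NF-kB pattern GGGNNTTCC, as GGGACTTCC, which 5.78% of windows hold. The core of an IL6 response element was searched as CTGGGAA, which 9.15% of windows hold. Of the 5, HPX alone held it, from 75 to 69 bases before the start and on the opposite strand. The SAA4 window, which is not shown, held the C/EBP pattern at 6 places. In these windows no match overlapped another, and they describe letters, not binding in Huh7.

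STYK1 itself, the transfected gene, was far above background with its plasmid and at background without it. Control replicates 1 and 2 read 0.26 and 0.61, against 7.40 and 7.86 for STYK1 replicates 1 and 2, in log2 units of the deposited signal. This is a rise of at least 118-fold, a lower bound because both controls lay under the floor (limma, adjusted p = 0.0373). The call was lost without control replicate 1 or 2 or STYK1 replicate 1 or 2 (adjusted p = 0.347 to 0.724), with the replicate number as a block (0.0637) and with an offset of 16 before log2 (0.626, difference 3.62). The floor of an array is the 95th percentile of its 432 olfactory receptor probe sets, genes not known for a role in liver cells, and signals under it were taken as background; it lay between 0.73 and 0.78.

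All 10 hepatocyte markers lay above the floor on every array. Their log2 signals summed to 83.47 and 83.61 for the controls and 83.40 and 83.46 with STYK1. The other marker sums are likewise of log2 signals. Of the markers measured for other cells, 3 of 10 for macrophages, 1 of 10 for neutrophils, 1 of 9 for lymphocytes, 0 of 9 for endothelial cells and 0 of 9 for stellate cells lay above the floor on all arrays. Cholangiocyte markers did so for 4 of 8 and adipocyte markers for 2 of 10, with ADIPOQ, LEP and FABP4 under it throughout. The adipocyte sum was 8.86 and 8.90 for control and 9.63 and 9.60 with STYK1, and the stellate sum was 5.53 and 5.72 for control and 4.87 and 5.49 with STYK1. The cholangiocyte sum was 25.53 and 25.86 for control and 25.94 and 25.91 with STYK1. In these 3 sums and in the hepatocyte sum the groups did not overlap. STYK1 values were higher for adipocyte and cholangiocyte and lower for stellate and hepatocyte. The nearest hepatocyte sums were 83.47 for control and 83.46 with STYK1. Among single probe sets, 32.8% had groups that did not overlap, and the share for sums was not computed. The adipocyte and stellate sums hold mostly markers not above the floor on all arrays, so their orders are in part orders among background signals. The 2 genes of the adipocyte list above it differed in opposite directions, ADIPOR2 by 0.18 and CFD by −0.050. Whether either marks adipocytes in this line was not tested. KRT19, a cholangiocyte keratin picked for its values, gave 3.36 and 3.31 for control and 3.04 and 3.12 with STYK1 (difference −0.26, unadjusted p = 0.0376, limma adjusted p = 0.979). Of the 8 cholangiocyte markers measured, 4 had differences above 0 and 4 below. EPCAM and ANXA4, also above the floor on all arrays, differed the other way, by 0.18 and 0.12. The part of these markers in the results was not tested. The macrophage sum was 10.48 and 10.41 for the controls and 10.84 and 10.29 with STYK1. CD163, MARCO and VSIG4 were under the floor throughout, while CD68, CD14 and TYROBP lay above it on every array. The neutrophil sum was 5.29 and 5.56 for the controls and 5.17 and 5.50 with STYK1. S100A8, S100A9 and CSF3R were under the floor, while ELANE lay above it on every array. In bulk RNA, fewer cells with a transcript and less of it per cell cannot be told apart.

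None of the acute phase genes rose or fell past the test when STYK1 was overexpressed. HP, HPX, LRG1 and the shared ORM1/ORM2 probe set were above the floor on all 4 arrays, CRP, SAA1 and LBP lay under it on all 4, and the shared SAA2/SAA4 probe set lay above it on 3. The differences, always STYK1 minus control in log2 units, ran from −0.22 for SAA2/SAA4 to 0.11 for ORM1/ORM2, with 6 below 0 and 2 above. By limma 0 of the 8 passed an adjusted p of 0.05, where 0.00187% of all probe sets did, and 0 had an unadjusted p under 0.05, where 4.64% did. Their adjusted p-values lay between 0.979 and 0.999. For all 8 the 95% interval of the difference stayed inside a 2-fold change in either direction, and HP had both the lowest bound, −0.70, and the highest, 0.47. These intervals are of deposited signals. Processing that shrinks dim signals would narrow them, so for CRP, SAA1, LBP and SAA2/SAA4 they do not bound the change of the transcript. The same may hold in part for HPX and LRG1, which were above the floor but low, with control means of 2.13 and 3.11.

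**Figure D1:**
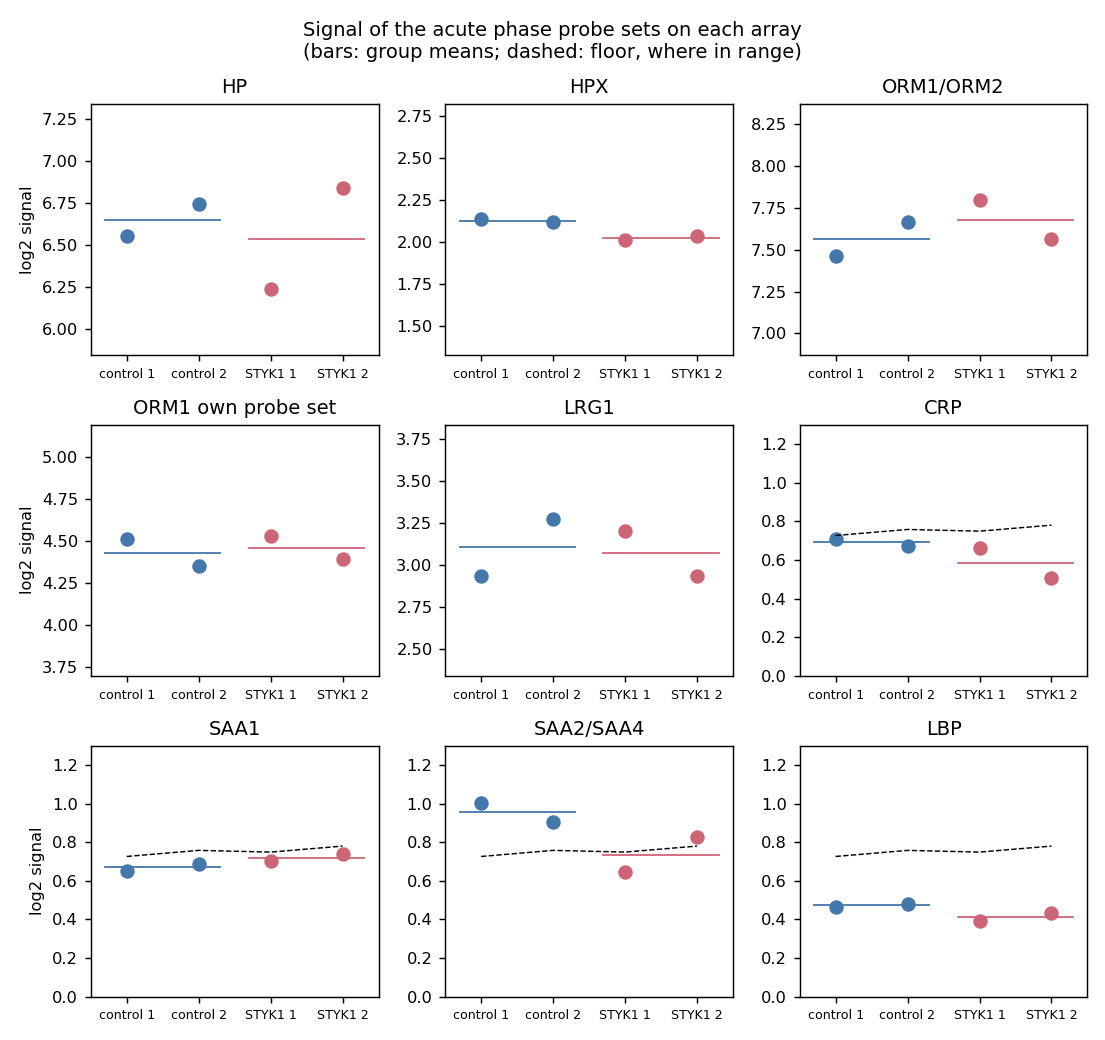
Log2 signal (vertical axis) of each acute phase probe set on the 4 arrays (horizontal axis); points are arrays, solid bars are group means and the dashed line is the floor. The axes of HP, HPX, LRG1 and both ORM panels span a short range around the mean and do not start at 0. HP has its lowest and its highest value in the STYK1 group, whereas both HPX controls lie above both STYK1 arrays.

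Among the scavengers of haemoglobin and haem, HP had the wider spread. The control arrays gave 6.55 and 6.75, STYK1 replicate 1 gave 6.23 and STYK1 replicate 2 gave 6.84. The lowest and the highest of the 4 values were thus both in the STYK1 group, and the groups overlapped. With means of 6.65 ± 0.14 for control and 6.54 ± 0.43 for STYK1 (SD, n = 2), the difference was −0.11 (SE 0.22, interval −0.70 to 0.47, limma adjusted p = 0.996). Without STYK1 replicate 1 it turned to 0.19, and without STYK1 replicate 2 it was −0.42.

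HPR, a close copy of HP and its direct neighbour in the RefSeq gene order, has its own probe set and was singled out after its values were seen. The control arrays gave 1.46 and 2.13, STYK1 replicate 1 gave 1.18 and STYK1 replicate 2 gave 0.69, which is under the floor. The groups did not overlap, and the difference was −0.86 (SE 0.28), with an unadjusted p of 0.0310 and an adjusted p of 0.979 by limma. HPR was thus further from 0 than any of the 8 acute phase probe sets, though short of the threshold over all probe sets. HP was highest on STYK1 replicate 2, the array on which HPR was lowest. Both were higher on control replicate 2 than on control replicate 1, and 4 arrays are too few to read a relation. Transcripts of HP and HPR are so similar that either signal may hold some of the other.

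HPX was the only one of the 4 probe sets above the floor on all arrays whose groups did not overlap. It gave 2.14 and 2.12 on the control arrays and 2.02 and 2.03 on the STYK1 arrays. Both STYK1 values lay below both controls, and the difference of −0.10 exceeded the gaps between replicates, 0.018 for control and 0.020 for STYK1. The test, which moderates each probe set's spread towards that of the rest, did not call it (SE 0.084, interval −0.32 to 0.12, limma adjusted p = 0.981). Leaving out each array in turn left the HPX difference between −0.11 and −0.093. Of all probe sets above the floor on every array, 33.1% had groups that did not overlap, so 1 of 4 is near the background.

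The alpha-1-acid glycoprotein genes ORM1 and ORM2 are direct neighbours in the genome with near-identical transcripts, which the shared probe set does not separate. It gave 7.46 and 7.67 for control replicates 1 and 2, then 7.79 and 7.56 for STYK1 replicates 1 and 2. The highest value came from STYK1 replicate 1 and the lowest from control replicate 1, and the groups overlapped. The difference was 0.11 (SE 0.13, interval −0.23 to 0.46, limma adjusted p = 0.986), and without STYK1 replicate 1 it was −0.0019. STYK1 replicate 1, highest for ORM1/ORM2, was the array on which HP was lowest. Both probe sets were higher on control replicate 2 than on control replicate 1, so no relation is read from 4 arrays.

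The probe set of ORM1 alone showed as little. Its values were 4.51 and 4.35 for control and 4.53 and 4.39 for STYK1, and the groups overlapped. Its difference was 0.030 (SE 0.11, interval −0.25 to 0.31, limma adjusted p = 0.999).

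LRG1 gave 2.94 and 3.28 on the control arrays and 3.20 and 2.94 on the STYK1 arrays. The STYK1 values lay inside the range of the controls. With means of 3.11 ± 0.24 for control and 3.07 ± 0.19 for STYK1 (SD, n = 2), the difference was −0.036 (SE 0.16, interval −0.46 to 0.39, limma adjusted p = 0.999). Its sign changed with single arrays, to 0.13 without control replicate 2 and 0.097 without STYK1 replicate 2, while it was −0.21 without control replicate 1.

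CRP, the clinical marker of inflammation, had no signal above background. Its values were 0.71 and 0.67 for control and 0.66 and 0.51 for STYK1, each under the floor of its array, so no fold is given; the fitted difference was −0.11 (interval −0.36 to 0.15, limma adjusted p = 0.983), and −0.031 without STYK1 replicate 2 and −0.18 without STYK1 replicate 1. SAA1 was also under the floor throughout, at 0.65 and 0.69 for control and 0.70 and 0.74 for STYK1, with a fitted difference of 0.050 (interval −0.17 to 0.27, limma adjusted p = 0.995). For all 3 genes at background the groups did not overlap, CRP and LBP with lower and SAA1 with higher STYK1 values, but these are orders among background signals. LBP gave 0.47 and 0.48 for control and 0.39 and 0.44 for STYK1, a fitted difference of −0.059 (interval −0.28 to 0.16, limma adjusted p = 0.991).

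The shared SAA2/SAA4 probe set lay at the edge of detection. Control replicates 1 and 2 gave 1.00 and 0.91, both above the floor, STYK1 replicate 1 gave 0.64, under it, and STYK1 replicate 2 gave 0.83, just above it. Both STYK1 values lay below both controls, with means of 0.74 ± 0.13 for STYK1 and 0.96 ± 0.07 for control (SD, n = 2). The difference was −0.22 (SE 0.11, interval −0.50 to 0.061), with an unadjusted p of 0.0989 and an adjusted p of 0.979 by limma. It was −0.13 without STYK1 replicate 1 and −0.31 without STYK1 replicate 2. SAA4 and SAA2 are direct neighbours on chromosome 11, with SAA1 nearby, and the signal cannot be assigned to the inducible SAA2 or the constitutive SAA4.

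**Figure D2:**
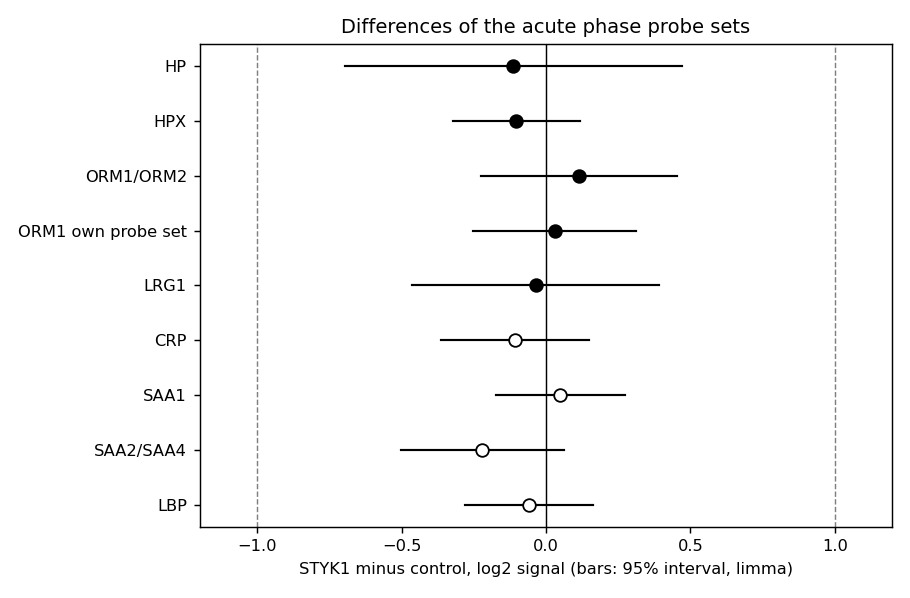
Difference of STYK1 minus control in log2 signal (horizontal axis) for each acute phase probe set (vertical axis), with the 95% interval from limma as bars. Filled points were above the floor on all 4 arrays, open points were not, and dashed lines mark a 2-fold change. Every interval spans 0, and HP has the widest, from −0.70 to 0.47.

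Counted over the 8 probe sets, the groups did not overlap for 5, or 62.5%, where 32.8% of all probe sets did not overlap. Of these 5, CRP, SAA1 and LBP were under the floor on every array and SAA2/SAA4 on STYK1 replicate 1, and HPX was the one above it throughout. The smallest two-sided p that an exact permutation of 2 arrays against 2 can give is 0.333, so none is given per gene. The median difference of the 8 was −0.081, where that of all probe sets was 0.0056. In size the median was 0.11 for the 8 and 0.086 for all probe sets.

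**Figure D3:**
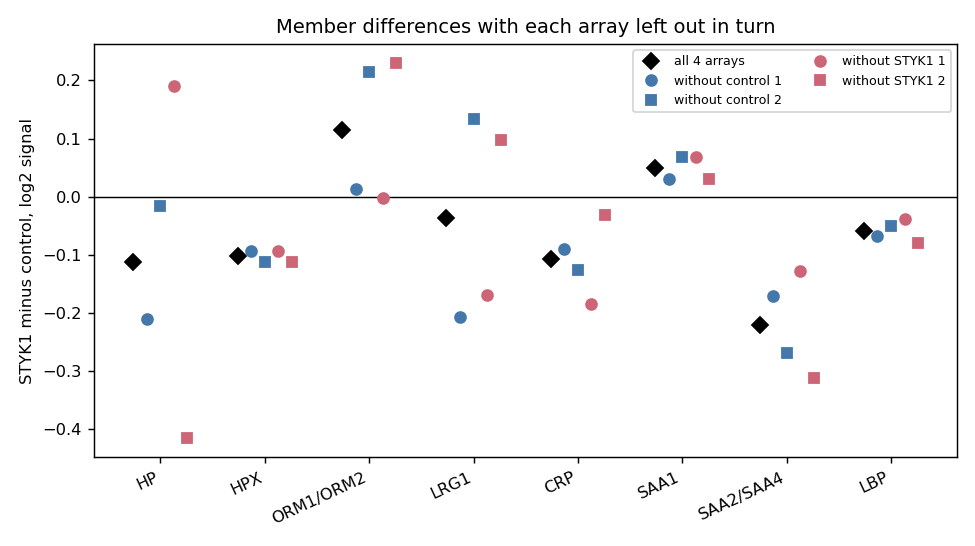
Difference of STYK1 minus control in log2 signal (vertical axis) for each acute phase probe set (horizontal axis), with all 4 arrays (diamonds) and with each array left out in turn (circles and squares). HP, LRG1 and ORM1/ORM2 cross 0, whereas HPX stays between −0.11 and −0.093.

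The other positive acute phase proteins, which also rise in plasma during inflammation, had no gene past the test. Of 26 listed, 22 were measured, and 16 of those lay above the floor on all arrays. Among the 16, differences were below 0 for 14 and above 0 for 2, with a median of −0.065, where the median of all probe sets above the floor was 0.015. By limma 0 of the 22 passed in either direction, and 0 had an unadjusted p under 0.05. The sizes were largest for HAMP, the iron hormone hepcidin (−0.40), the fibrinogen chain FGA (−0.22), the lectin MBL2 (−0.20) and the copper carrier CP (−0.16). The groups overlapped for HAMP, whose difference was −0.10 without control replicate 1 and −0.12 without STYK1 replicate 1, and for MBL2, whose difference turned to 0.065 without control replicate 1. FGA gave 9.45 and 9.40 for control and 9.11 and 9.29 for STYK1, and its groups, like those of CP, did not overlap. In all, 6 of the 16 had both STYK1 values below both controls and 1 had both above, where 33.1% of probe sets above the floor did not overlap. The log2 signals of the 22 genes summed to 87.15 and 85.70 for control and 84.41 and 85.27 for STYK1. This sum was lower on both STYK1 arrays, but it restates the same values and includes genes not above the floor. The 2 controls also stood further apart than control replicate 2 and STYK1 replicate 2.

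Negative acute phase proteins, whose plasma levels fall in inflammation, were balanced between the directions. Of 14 listed, 13 were measured and 12 lay above the floor, of which 5 had differences above 0 and 7 below, with a median of −0.012. By limma 0 passed, and 0 had an unadjusted p under 0.05. ALB, serum albumin, gave 10.51 and 10.42 for control and 10.60 and 10.60 for STYK1, a difference of 0.14 (SE 0.088, limma adjusted p = 0.979) with groups that did not overlap. The corticosteroid carrier SERPINA6 differed by −0.17, also without overlap, and ITIH2, a heavy chain of inter-alpha-inhibitor, by 0.065 with overlapping groups. The vitamin E transfer protein TTPA differed by −0.22, but its groups overlapped and the sign turned without STYK1 replicate 1 (0.12). In all, 4 of the 12 did not overlap, or 33.3%, which is near the 33.1% of all probe sets above the floor.

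The cytokine receptors and signalling genes upstream of the acute phase response had no gene past the test either, and the differences of the receptors had opposite signs. Of 27 listed, 26 were measured and 21 lay above the floor, 10 with differences above 0 and 11 below, with a median of −0.00037. By limma 0 passed, and 3 of the 26 had an unadjusted p under 0.05, where 4.64% of all probe sets did: IL6R, NR3C1 and the TNF receptor TNFRSF1A. The groups did not overlap for 14 of the 21, 6 with higher and 8 with lower STYK1 values, or 66.7% where the background was 33.1%. IL6R, which binds IL6, gave 3.48 and 3.04 for control and 2.57 and 2.70 for STYK1, a difference of −0.63 (SE 0.17, limma adjusted p = 0.979). IL6ST, the signalling chain that IL6R shares with other receptors, gave 6.55 and 6.72 for control and 6.86 and 6.95 for STYK1, a difference of 0.27 (SE 0.10). In neither gene did the groups overlap.

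OSMR, a receptor for oncostatin M, gave 3.65 and 3.63 for control, 2.93 for STYK1 replicate 1 and 3.54 for STYK1 replicate 2, so that 1 array made most of its difference of −0.41, which was −0.099 without it. NR3C1, the glucocorticoid receptor, gave 1.78 and 1.74 for control and 2.12 and 2.07 for STYK1, a difference of 0.33 (SE 0.086, limma adjusted p = 0.979). TNFRSF1A gave 2.19 and 2.22 for control and 2.55 and 2.39 for STYK1, a difference of 0.27 (SE 0.098). In each of these genes the groups did not overlap. NFKBIA, an inhibitor and target of NF-kB, differed by 0.27, and STAT3 by 0.0042 with overlapping groups. The cytokine genes IL6 and IL1B were under the floor on every array, and SOCS3, a feedback inhibitor induced by STAT3, lay above it on control replicate 1 alone. TNFRSF1A, IL6ST, STAT3 and SOCS3 are named beyond the rule, with their values already known.

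Liver transcription factors that act on acute phase promoters had differences below 0 for 9 of the 12 measured, with a median of −0.12. All 12 lay above the floor, and by limma 0 passed and 0 had an unadjusted p under 0.05. CEBPA, a C/EBP factor, gave 7.79 and 7.62 for control and 7.36 and 7.59 for STYK1, a difference of −0.23 (SE 0.13) with groups that did not overlap. FOXA3 differed by −0.82, FOXA2 by −0.26 and ATF6 by 0.21, and the groups of FOXA2 and ATF6 overlapped; without control replicate 1 ATF6 differed by 0.013. The groups did not overlap for 3 of the 12, or 25%, where 33.1% of all probe sets above the floor did not overlap. The FOXA3 signal was 2.73 on STYK1 replicate 1 and 1.73 on STYK1 replicate 2, with 3.06 and 3.05 for control, so the STYK1 arrays also stood far from each other and the difference was −0.32 without STYK1 replicate 2.

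Receptors and clearance partners of the acute phase proteins were mostly not above background. Of 19 measured, 10 were under the floor on every array, among them CD163, the receptor for HP bound to haemoglobin, the lipopolysaccharide receptor TLR4 with its partner LY96, and FPR2, a receptor for SAA proteins. The 6 above it on all arrays included LRP1, a receptor for HPX bound to haem, at 4.82 and 5.16 for control and 5.16 and 5.01 for STYK1. CD14, which receives lipopolysaccharide from LBP, gave 1.98 and 2.23 for control and 2.06 and 2.02 for STYK1. The groups overlapped for LRP1 and CD14, and the sign of each turned without a single control, LRP1 to −0.071 without control replicate 1 and CD14 to 0.055 without control replicate 2. HMOX1, which degrades haem, differed by −0.31 with overlapping groups and by −0.054 without control replicate 2, and LCAT, a cholesterol-esterifying enzyme of lipoproteins, by −0.37 with groups that did not overlap. By limma 0 of the 19 passed and 1, HPR, had an unadjusted p under 0.05, which is near the background of 4.64%. The groups did not overlap for 1 of the 6, or 16.7%, where 33.1% of all probe sets above the floor did not overlap.

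**Figure D4:**
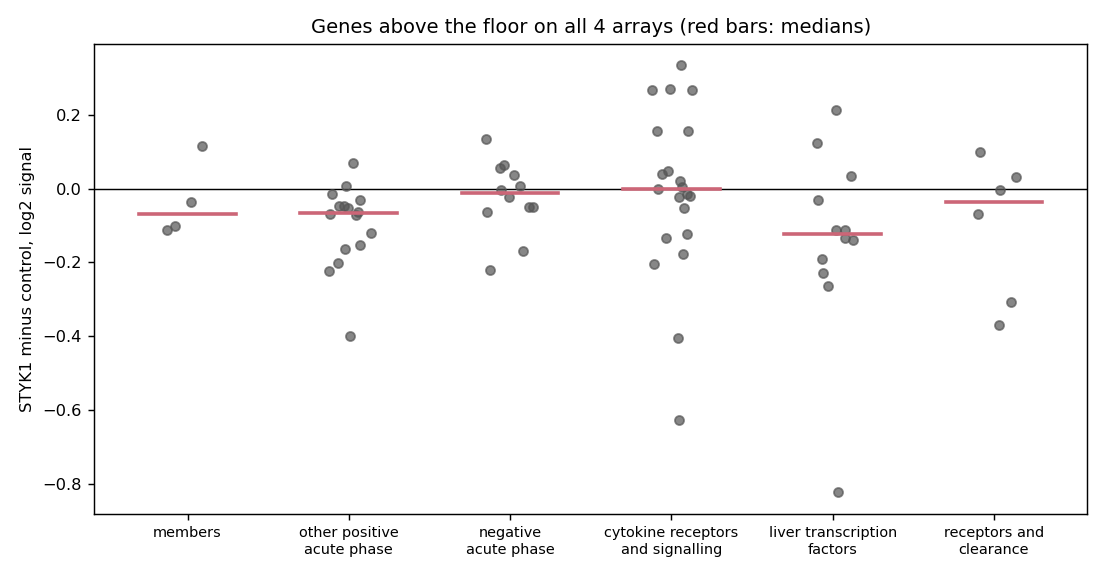
Difference of STYK1 minus control in log2 signal (vertical axis) for the genes above the floor on all 4 arrays, by list (horizontal axis); points are genes or, for the members, probe sets, and red bars are medians. The 12 liver transcription factors have a median of −0.12, with FOXA3 lowest at −0.82, and the 16 other positive acute phase genes one of −0.065.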

How the data were processed

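The members and lists were chosen with earlier results of these data known. The authors deposited 1 table of log2 signals, 1 value per probe set and array; the base was inferred from the size of the values. Per the submitters' processing notes the Transcriptome Analysis Console was used; how signals were summarized and normalized, and on which build, is not given in the sources used here. Without scan dates or detection calls, neither batches nor detection limits could be read. Array medians lay between 0.615 and 0.629, and no further scaling was applied. Probe sets were named from the platform's annotation, with symbols updated by Entrez ID through RefSeq (GRCh38.p14). List genes took their highest probe set with 1 symbol, and listed genes without one were not analysed here.

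The test was limma's (version 3.58.1 in R 4.3.3): lmFit on group and eBayes with no trend, two-sided, adjusted by Benjamini-Hochberg over 53617 probe sets, with 2 residual degrees of freedom and a prior of 2.71. It was tested on simulated data. Named are all members and, from each list without a call, up to 4 genes above the floor with the largest differences. The number of arrays limits the precision: the median SE was 0.11. Alternatives changed the scaling, the filter, the variance model, the offset, the probe set, the replicate block and the arrays used.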

Additional observations from a re-analysis of the deposited data

How the results depend on the processing

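All alternatives were planned except leaving out arrays for the listed genes, which was chosen after seeing the data. No acute phase probe set passed the test in any of the 12 run for the members, and the median of their differences lay between −0.10 and −0.011. HPX, CRP, LBP, SAA1 and SAA2/SAA4 kept their directions. With 1 array left out, HP ran from −0.42 to 0.19, ORM1/ORM2 from −0.0019 to 0.23 and LRG1 from −0.21 to 0.13; the signs turned for HP and ORM1/ORM2 without STYK1 replicate 1, and for LRG1 without control replicate 2 or STYK1 replicate 2 (0.097). With only probe sets whose mean lay above the mean floor, CRP, SAA1 and LBP drop out. Of the members left, 2 did not overlap, HPX and SAA2/SAA4, while HP, LRG1 and ORM1/ORM2 did. With 1 array left out, 6 to 7 of 8 did not overlap, but 1 array against 2 separates more often than 2 against 2. The share of all probe sets that did not overlap was not computed for these settings. With an offset of 16 before log2 the STYK1 difference was 3.62 (adjusted p = 0.626) and 0 probe sets passed; by construction the offset shrinks differences of dim signals. With 1 array left out the STYK1 difference was 6.96 to 7.42 and 0 probe sets passed, with 1 residual degree of freedom and the lone array assumed to vary like the others. Nothing in the labels pairs equal replicate numbers, and deviations of same-numbered arrays correlated at −0.044. With the replicate block, which also left 1 residual degree of freedom, the STYK1 difference stayed at 7.19 (limma adjusted p = 0.0637) and 0 probe sets passed. A replicate effect was not tested. For CRP, SAA1, LBP and SAA2/SAA4, signal near background limits what could be seen.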
